A study of Rhodotorula toruloides with 18 samples.

Results

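The 150 genes described here had higher messenger RNA levels on cellobiose than without carbon in the wild type of the oil-storing yeast Rhodotorula toruloides, and lower levels in a cbr1 deletion strain than in the wild type on cellobiose. They were chosen from 8484 genes by the values themselves. Of these, 7938 had a mean of at least 1 TPM (a length-adjusted share of a library's messenger RNA, with an equal sum in every library) over the 18 libraries. Group means of log2(TPM + 1) then had to differ by at least 1 in both contrasts, and the wild type without carbon had to exceed the deletion strain without carbon by less than 0.5. In all, 285 genes met these thresholds, and the 150 with the largest value of the smaller of the 2 differences were taken.

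Both strains derive from isolate IFO0880 and carry a hygromycin resistance cassette at yku70 (yku70::HygR). Ku70 acts in non-homologous end joining, and fungal strains without it are commonly used because genes are easier to target in them. The deletion strain also had cbr1 replaced by a nourseothricin resistance cassette (yku70::HygR cbr1::NatR), and the strain with the yku70 cassette alone is called the wild type in the labels and here. Cells grown overnight in rich glucose medium were washed and kept for 8 h at 28 degrees C, in constant light, in yeast nitrogen base of pH 6.2. The 6 groups of 3 libraries were the deletion strain and the wild type on 1% cellobiose, both strains on 1% succinate, and both strains without carbon. The labels call the libraries biological triplicates and do not say whether the deletion strain is more than a single isolate.

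Cellobiose is a disaccharide of glucose released from cellulose, and fungi split it with beta-glucosidases before or after uptake. Succinate is a dicarboxylic acid that enters the tricarboxylic acid cycle without passing through glycolysis. In carbon catabolite repression, a preferred carbon source lowers the expression of genes for the use of other sources. The series concerns a transcription factor that links carbon source use with this repression. The deposited table gives identifiers only, and 0 of them matched any of the 8171 genes in the reference annotation, made for strain NP11. The members are therefore given by identifier, no function is stated for any of them, and the cbr1 transcript could not be looked up.

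Libraries on succinate stood apart from their groups. Replicate 3 of the wild type on succinate had the lowest median over tested genes, 15.5 TPM, against 20.9 to 42.1 TPM in the other 17 libraries. Across tested genes that library correlated with deletion replicates 1, 2 and 3 on succinate at r = 0.876, 0.949 and 0.930. With its own replicates 1 and 2 the values were 0.913 and 0.938. Replicate 3 of the deletion strain on succinate correlated across tested genes with wild type replicates 1 and 2 on succinate at r = 0.983 and 0.987, and with its own replicates 1 and 2 at 0.921 and 0.954. RTO4_13588, a gene that is not a member and was picked after its values were seen because it separates the strains in every medium, was at 2.03, 1.76 and 1.75 TPM in deletion replicates 1, 2 and 3 on succinate, against 25.9, 30.2 and 17.4 TPM in wild type replicates 1, 2 and 3. At that gene, both replicates 3 had the level of their labelled strain. Results on succinate are given with and without them.

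The members together took 1.02%, 1.122% and 1.097% of the TPM in the 3 deletion libraries on cellobiose, against 3.68%, 3.42% and 4.50% in the 3 wild type libraries on cellobiose. On succinate they took 1.95%, 2.13% and 2.87% in the deletion strain, against 3.66%, 2.79% and 1.32% in the wild type. Without carbon they took 1.07%, 1.11% and 0.927% in the deletion strain, against 1.34%, 1.17% and 0.942% in the wild type. The deletion strain on cellobiose was thus at the level of the cultures without carbon. This follows largely from the choice of members, because the groups on cellobiose and without carbon entered the rule. On succinate the strains overlapped, and wild type replicate 3 was the lowest library of that medium. TPM is a share of the messenger RNA, and the amount of RNA per cell and any differences in the makeup of the culture cannot be told apart.

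**Figure D1:**
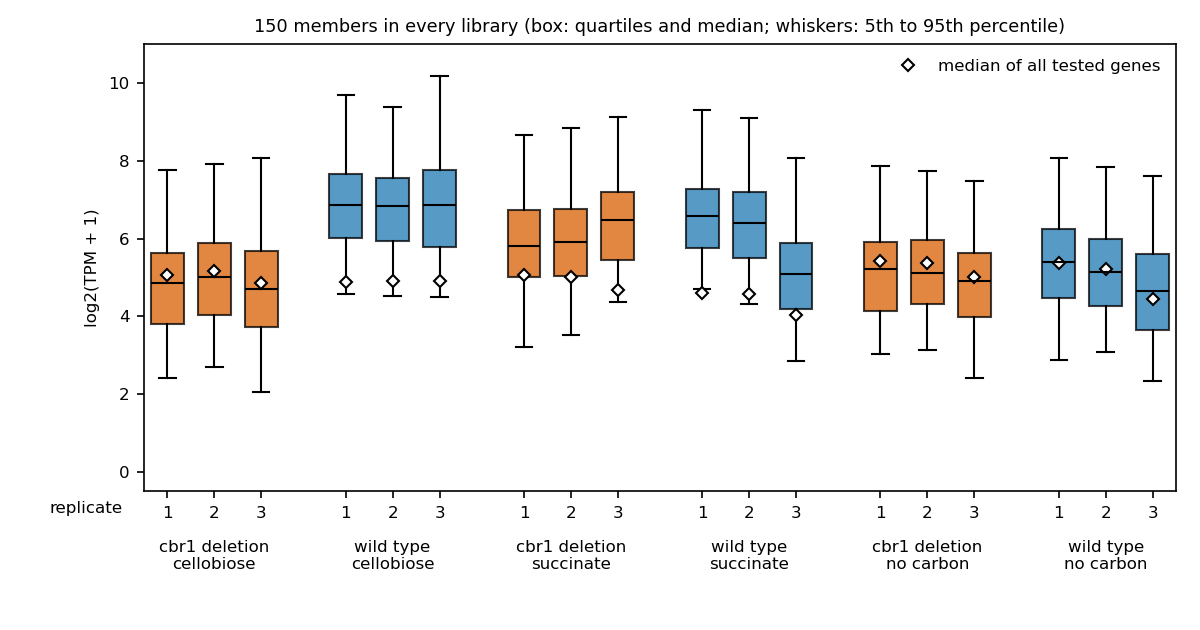
Levels of the 150 members as log2(TPM + 1) (vertical axis) in each library (horizontal axis, replicates 1 to 3 of each group; orange, cbr1 deletion; blue, wild type). Boxes give quartiles and median, whiskers the 5th and 95th percentiles, and diamonds the median of all tested genes; members lie above the diamonds in wild type on cellobiose and in both strains on succinate, and at or near them in the other groups.

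In the wild type on cellobiose, where the rule required a raised level, the members were among the more abundant transcripts. This follows in part from the choice of members. Their mean level there ran from 4.30 to 4530 TPM with a median of 117 TPM, and 138 of 150 lay above the median of all tested genes. The median member in the deletion strain on cellobiose was at 29.0 TPM, against 31.8 TPM for the median tested gene. Without carbon the median member was at 32.2 TPM in the deletion strain, against 38.1 TPM for the median tested gene. In the wild type without carbon the median member was at 32.9 TPM, against 32.8 TPM for the median tested gene. The typical spread between replicates, as the median over members of the SD of log2(TPM + 1), was 0.23 in the deletion strain and 0.37 in the wild type on cellobiose. It was 0.42 in the deletion strain and 0.87 in the wild type on succinate, and 0.18 in the deletion strain and 0.39 in the wild type without carbon. Over all tested genes the spread in the wild type on succinate was 0.40, so the members varied more among those 3 libraries than the typical gene did.

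The 2 contrasts on which the members were chosen are given as a description. The wild type difference between cellobiose and no carbon ranged from 1.26 to 6.74 on the log2(TPM + 1) scale with a median of 1.61. The difference between the deletion strain and the wild type on cellobiose ranged from -4.96 to -1.27 with a median of -1.88. Calls required an adjusted p under 0.05 in limma (Benjamini-Hochberg, over all tested genes) and an absolute log2 difference of at least 1. By that rule 150 members were lower in the deletion strain than in the wild type on cellobiose, where 9.15% of all tested genes were. In the wild type, 146 members were called higher on cellobiose than without carbon, where 8.78% were. These counts follow from the choice of members. The last members inside the list, ranked 149 and 150, had a smaller difference of 1.2616 and 1.2606. The first genes outside it had 1.2605 and 1.2604, so the end of the list is not a natural boundary.

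RTO4_13771 led the list. It was at 4.37, 5.53 and 4.62 TPM in the deletion strain on cellobiose, against 293, 240 and 81.9 TPM in the wild type on cellobiose. Without carbon it was at 14.3, 14.8 and 12.0 TPM in the deletion strain and at 13.3, 16.6 and 23.1 TPM in the wild type. All 3 deletion libraries on cellobiose lay below every library without carbon, so the gene was lower on cellobiose than in starved cells of the same strain. RTO4_8709, second in the list, was at 12.5, 21.8 and 13.3 TPM in the deletion strain on cellobiose, against 143, 107 and 107 TPM in the wild type. Without carbon it was at 20.2, 20.5 and 17.0 TPM in the deletion strain and at 19.4, 17.0 and 18.01 TPM in the wild type. For this gene the deletion libraries on cellobiose overlapped those of both strains without carbon.

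The 2 most abundant members in the wild type on cellobiose were RTO4_13362 and RTO4_13842. RTO4_13362 was at 1055, 1079 and 1249.8 TPM in the deletion strain on cellobiose, against 3471, 2934 and 7185 TPM in the wild type on cellobiose. Without carbon it was at 1124, 1286 and 1012 TPM in the deletion strain and at 1324, 1223 and 1113 TPM in the wild type. The deletion libraries on cellobiose thus lay within the range of the libraries without carbon, which was already high. RTO4_13842 was at 1235, 1223 and 1581 TPM in the deletion strain on cellobiose, against 3351, 3066 and 6506 TPM in the wild type on cellobiose. The pair held between 17.5% and 34.5% of the members' TPM in a library. Without the pair, the other members took 0.786%, 0.892% and 0.814% of the TPM in the deletion strain on cellobiose. In the wild type on cellobiose they took 2.99%, 2.82% and 3.13%. A difference without the pair was set in advance, since the rule required every member to be lower in the deletion strain on cellobiose.

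**Figure D2:**
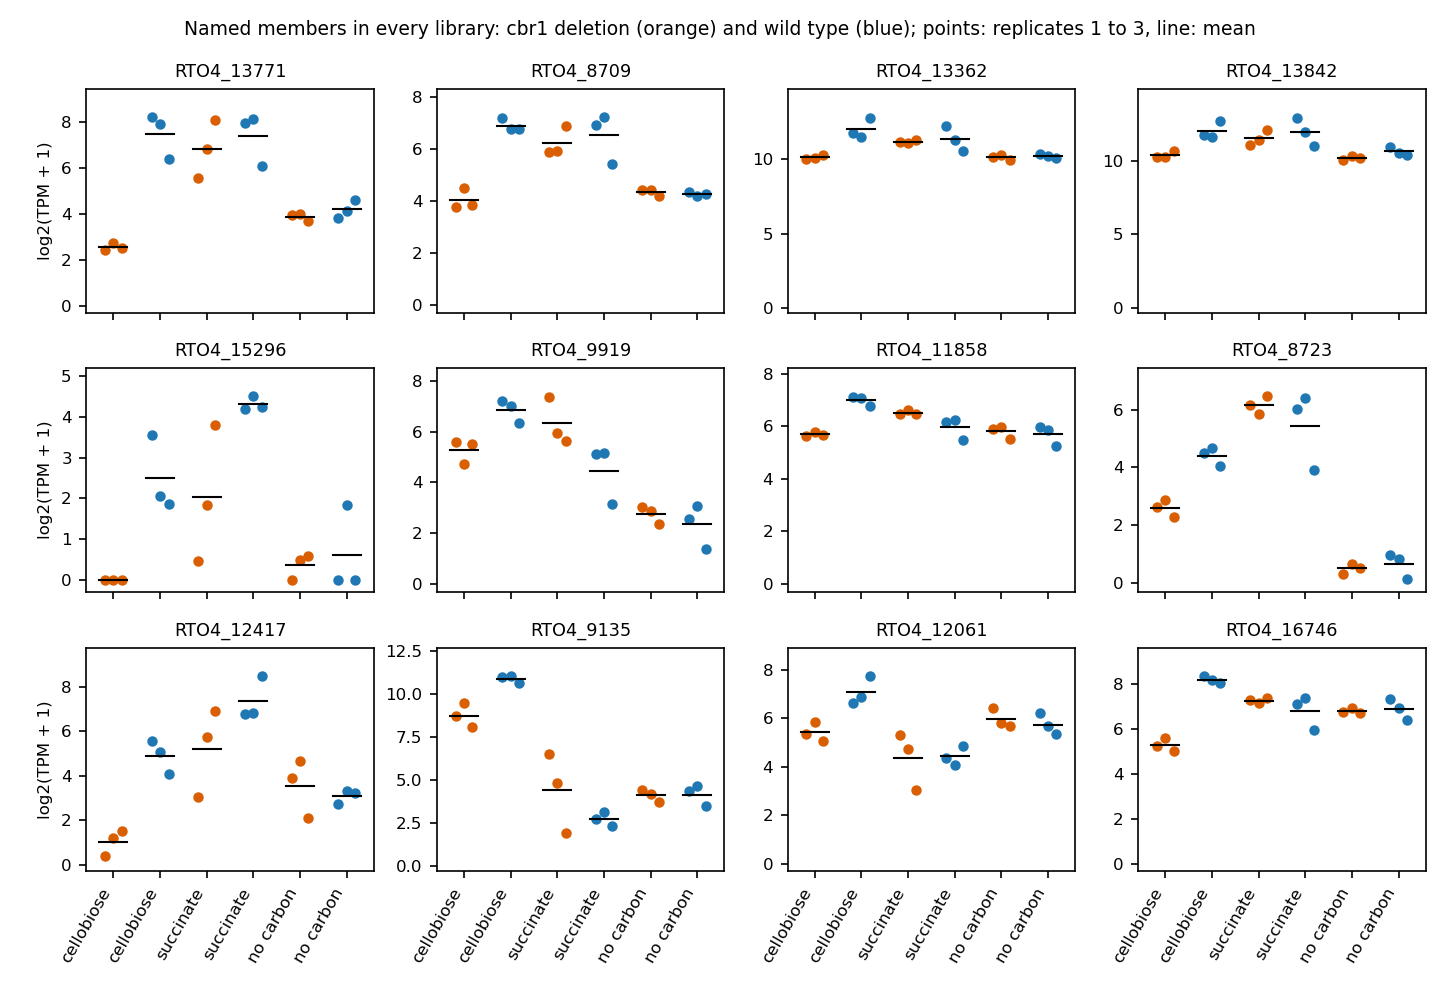
Levels of 12 named members as log2(TPM + 1) (vertical axes) in every library, by group (horizontal axis; orange, cbr1 deletion; blue, wild type). Points are replicates 1 to 3 and lines are means; on cellobiose the 3 deletion points lie below the 3 wild type points in each panel, while the order of the strains on succinate differs from gene to gene.

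The response to cellobiose that remained in the deletion strain was described by dividing its cellobiose minus no carbon difference by that of the wild type. The median over the 150 members was -12.2%, with quartiles of -34.3% and 8.20%. A value of 0% means no change between media in the deletion strain, and a negative one a lower level on cellobiose. The level in the deletion strain was at or below its own level without carbon in 102 members, and the median difference of -0.19 was close to that of all tested genes, -0.21. After other scalings of the libraries the median retained share was 0.926% (median-ratio) or 3.76% (quantile), so its sign depended on the scaling. All 4 group means in this share entered the rule, which bounds the level without carbon and requires a low level in the deletion strain on cellobiose. A share near or below 0 is thus largely set by the choice of members, and it is a description only.

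By the same choice few members could keep a large difference between cellobiose and no carbon in the deletion strain. It was at least 1 in 4 of 150 members and -1 or below in 9. RTO4_9135 retained the most, 68.8%. It was at 415, 704 and 268 TPM in the deletion strain on cellobiose, against 2061, 2110 and 1601 TPM in the wild type on cellobiose. Without carbon it was at 20.2, 17.0 and 12.4 TPM in the deletion strain and at 19.6, 24.1 and 10.1 TPM in the wild type. Its level on cellobiose was therefore reduced in the deletion strain but still above every library without carbon. RTO4_9919 retained 56.1%, with 47.7, 25.8 and 44.0 TPM in the deletion strain on cellobiose against 147, 126 and 80.3 TPM in the wild type.

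At the other end, RTO4_12417 and RTO4_16746 had shares of -138% and -116%. RTO4_12417 was at 0.309, 1.30 and 1.86 TPM in the deletion strain on cellobiose, against 13.8, 24.4 and 3.23 TPM in the deletion strain without carbon. RTO4_16746 was at 37.2, 47.3 and 32.1 TPM in the deletion strain on cellobiose, against 108, 123 and 107 TPM in the deletion strain without carbon. In both genes all 3 deletion libraries on cellobiose lay below all 3 without carbon. In the wild type the order was the reverse, with 46.4, 32.6 and 15.8 TPM on cellobiose against 5.68, 8.90 and 8.32 TPM without carbon for RTO4_12417, and 330, 295 and 266 TPM on cellobiose against 162, 124 and 83.2 TPM without carbon for RTO4_16746.

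The succinate libraries entered the choice of members only through the mean over the 18 libraries. The libraries without carbon, against which they are set, also entered the differences of the rule. The median difference of the members between succinate and no carbon was 0.96 in the deletion strain, where the median of all tested genes was -0.39, and 0.92 in the wild type, where it was -0.59. The difference was above 0 for 148 of 150 members in the deletion strain and 143 of 150 in the wild type. It reached at least 1 in 69 members in the deletion strain, against 7.19% of all tested genes, and in 66 members in the wild type, against 3.51%. By limma's adjusted p and a log2 difference of at least 1, 63 members were called higher on succinate in the deletion strain, where 6.79% of all tested genes were, and 58 in the wild type, where 2.95% were. Both comparisons share their libraries without carbon with the rule, so these counts are descriptions. The label of cellobiose-induced genes holds for the contrast that defined it, but the mean levels of most members were also higher on succinate than without carbon.

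The size of the succinate difference depended on the libraries. In 43 members it was at least 1 in both strains, in 26 in the deletion strain alone, in 23 in the wild type alone, and in 58 in neither. Without replicate 3 of both strains on succinate, a setting added after the data were seen, these counts were 37, 15, 71 and 27. For these classes the share of all tested genes was not computed. Without both replicates 3 the number in the wild type was 108, against 6.32% of all tested genes. That in the deletion strain was 52, against 7.62%. The members' medians were then 0.75 in the deletion strain and 1.43 in the wild type, against -0.30 and -0.43 over all tested genes. With other single libraries left out, the number in the wild type fell to 30 without wild type replicate 1 on succinate, 37 without replicate 2 on succinate and 43 without replicate 3 without carbon. Median-ratio scaling gave 127 and quantile normalization 120. The share of all tested genes after these scalings was not computed, so those counts cannot be set against it.

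**Figure D3:**
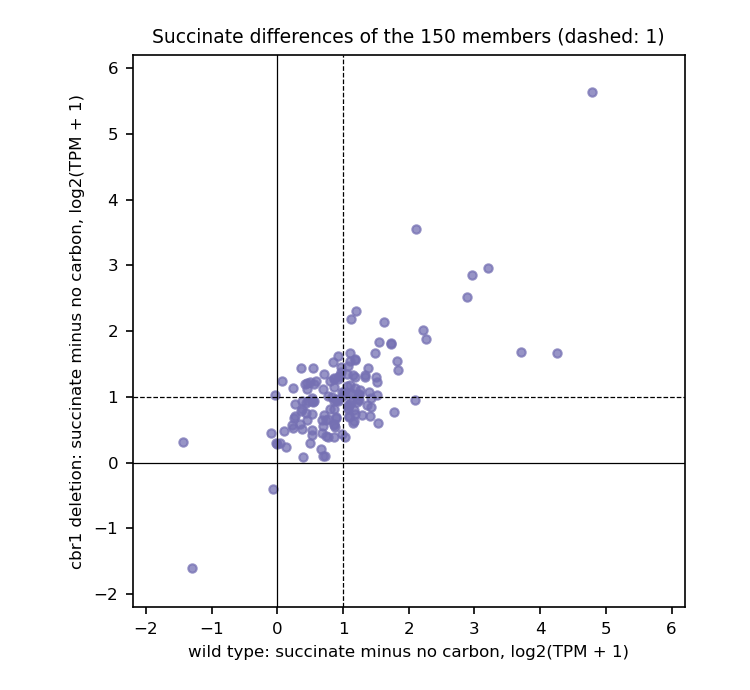
Succinate minus no carbon differences of the 150 members on the log2(TPM + 1) scale, in the cbr1 deletion strain (vertical axis) against the wild type (horizontal axis). Each point is a member, and dashed lines mark a difference of 1; 43 members lie above both dashed lines and 58 below both.

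RTO4_8723 and RTO4_12417 had the largest wild type differences between succinate and no carbon, 4.78 and 4.26. RTO4_8723 was at 70.8, 56.0 and 86.8 TPM in the deletion strain on succinate, against 63.9, 82.6 and 13.998 TPM in the wild type on succinate. Without carbon it was at 0.246, 0.601 and 0.449 TPM in the deletion strain and at 0.944, 0.807 and 0.111 TPM in the wild type. On cellobiose it was at 5.18, 6.39 and 3.91 TPM in the deletion strain and at 21.7, 24.3 and 15.7 TPM in the wild type. The highest level of this gene was thus on succinate and not on cellobiose in the deletion strain, and in the wild type replicates 1 and 2 on succinate also exceeded every cellobiose library. RTO4_12417 was at 7.18, 51.6 and 118 TPM in the deletion strain on succinate, against 108, 110 and 357 TPM in the wild type. Its strain difference there was -2.14 (limma adjusted p = 0.151). It was called without deletion replicate 3 on succinate (-2.98, limma adjusted p = 0.0171) and with array weights (-1.18). It was not called without deletion replicate 1 (limma adjusted p = 0.487) or without both replicates 3 (-2.41, limma adjusted p = 0.0544). In all, 5 of 150 members had a wild type mean on succinate at or above that on cellobiose, where the rule required a raised level. The members' median wild type difference between cellobiose and succinate was 0.73, against 0.43 over all tested genes. Without both replicates 3 on succinate the members' median was 0.23, so this order depended on those libraries.

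RTO4_9135 and RTO4_12061 were the members with the largest wild type difference between cellobiose and succinate, 8.17 and 2.65. On succinate RTO4_9135 was at 90.2, 27.4 and 2.84 TPM in the deletion strain and at 5.56, 7.94 and 3.94 TPM in the wild type. Its strain difference there was 1.70 (limma adjusted p = 0.153). It was called without deletion replicate 3 on succinate (2.94, limma adjusted p = 0.00183) and without both replicates 3 (2.73, limma adjusted p = 0.00392). A replicate block in the fit of all libraries (limma adjusted p = 0.0466) and array weights also gave a call. Without deletion replicate 1 on succinate the difference was 0.66 (limma adjusted p = 0.541). RTO4_12061 was at 38.7, 25.9 and 7.37 TPM in the deletion strain on succinate and at 19.7, 15.7 and 28.4 TPM in the wild type on succinate, and its wild type level on cellobiose was 97.2, 117 and 215 TPM. In the wild type both genes were lower on succinate than without carbon, by log2 differences of -1.44 and -1.31. These were the only members with such a difference of -1 or below, although a difference of at least 1 between cellobiose and succinate in the wild type was seen in 39 members, against 10.3% of all tested genes. Without both replicates 3 on succinate that number was 13.

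Within the deletion strain most members had a lower mean level on cellobiose than on succinate. The median difference was -1.19, against 0.17 for all tested genes, and 98 of 150 members had a difference of -1 or below, against 7.45% of all tested genes. Without both replicates 3 on succinate the median was -1.005 and the number 75. A higher level on succinate than on cellobiose was seen in 147 members of the deletion strain. The cellobiose libraries of this comparison entered the rule, so it too is a description.

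**Figure D4:**
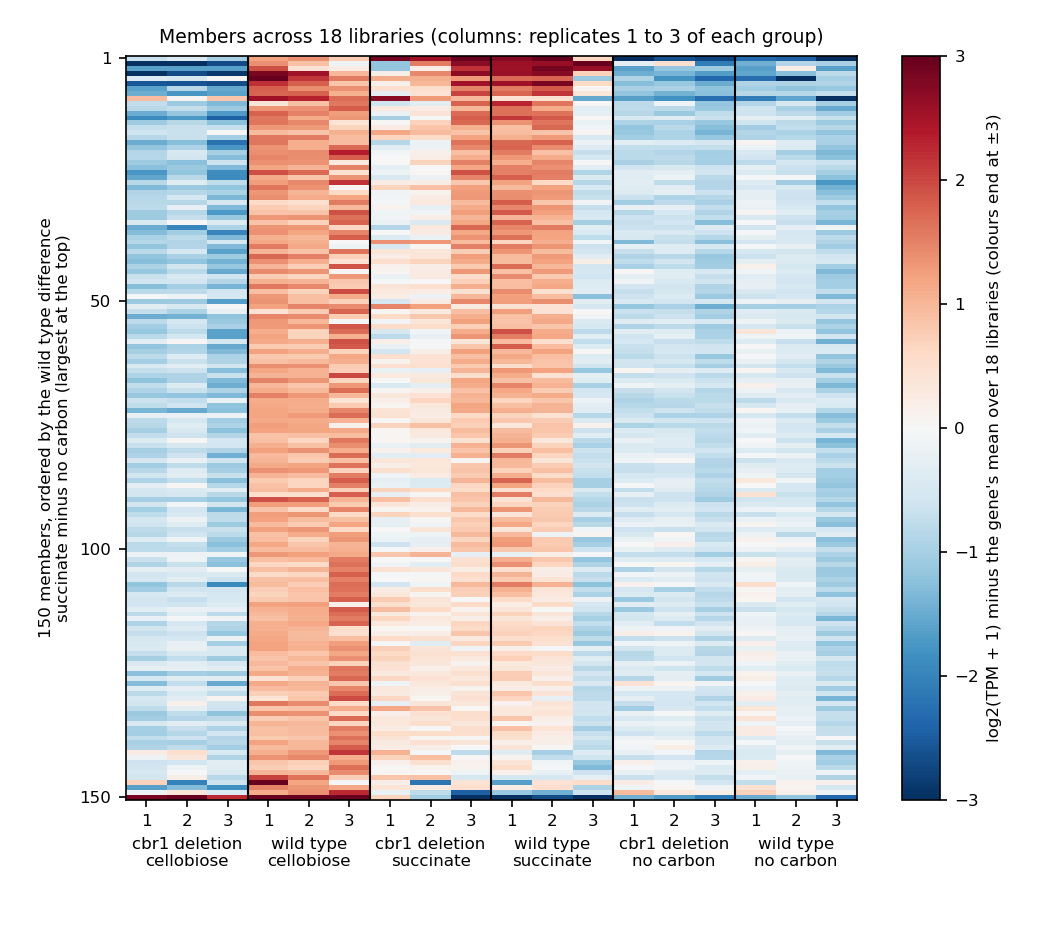
Each row is a member and each column a library; colour gives log2(TPM + 1) minus the gene's mean over the 18 libraries. Rows are ordered by the wild type difference between succinate and no carbon; the wild type on cellobiose is red and the deletion strain on cellobiose mostly blue down the map, while on succinate replicate 3 departs from replicates 1 and 2 in both strains.

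The strain comparison on succinate is the one comparison of this design whose libraries did not enter the differences of the rule. It asks whether the members were also lower without Cbr1 on another carbon source. The median difference between the deletion strain and the wild type was 0.03, with quartiles of -0.26 and 0.32. The difference was below 0 in 72 of 150 members, against 14.7% of all tested genes. Over all tested genes the median was 0.47, so the members lay 0.44 below the typical gene. With limma, 0 members were called in either direction, where 0.0126% of all tested genes were called higher and 0.0252% lower. The lowest adjusted p among the members was 0.151, and 7 had an unadjusted p under 0.05, against 27.1% of all tested genes. Limma with array weights, which gives libraries unequal weight, called 38 members, 3 higher and 35 lower, where 12.3% of all tested genes were called higher and 1.83% lower.

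These values depended on single libraries. Wild type replicate 3 was the lowest of the 6 succinate libraries for 129 of 150 members, and for 66.8% of all tested genes. Deletion replicate 3 was the highest of its group for 113 of 150 members, and for 20.6% of all tested genes. Without deletion replicate 3 the median strain difference of the members was -0.18, and 5 members were called higher and 6 lower, where 13.1% and 0.655% of all tested genes were. Without wild type replicate 3 the median was -0.43, and 119 members were below 0, against 24.1% of all tested genes. Then 0 members were called, where 0.0126% of tested genes were called higher and 0.0504% lower. Without both, the median was -0.64 against 0.43 over all tested genes. In that setting limma called 2 members higher and 38 lower, where 7.37% and 1.78% of all tested genes were, and 2 libraries remained in each strain.

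Deletion replicates 1 and 2 both lay below wild type replicates 1 and 2 in 101 members, and in 12.4% of all tested genes. With all 6 libraries, replicates 3 included, the 2 strains could not be ordered on succinate for most members. Without both replicates 3 the difference was below 0 in 119 members, of which 38 were called, and in 24.2% of all tested genes. The part of those 2 libraries in the result was not tested. The scaling also bears on the sign. Median-ratio scaling brought the median of all tested genes to 0.00 and that of the members to -0.49, and quantile normalization gave 0.04 and -0.36. Relative to all tested genes the members lay 0.49 and 0.40 lower under these scalings, and in no setting run were they above the typical gene.

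**Figure D5:**
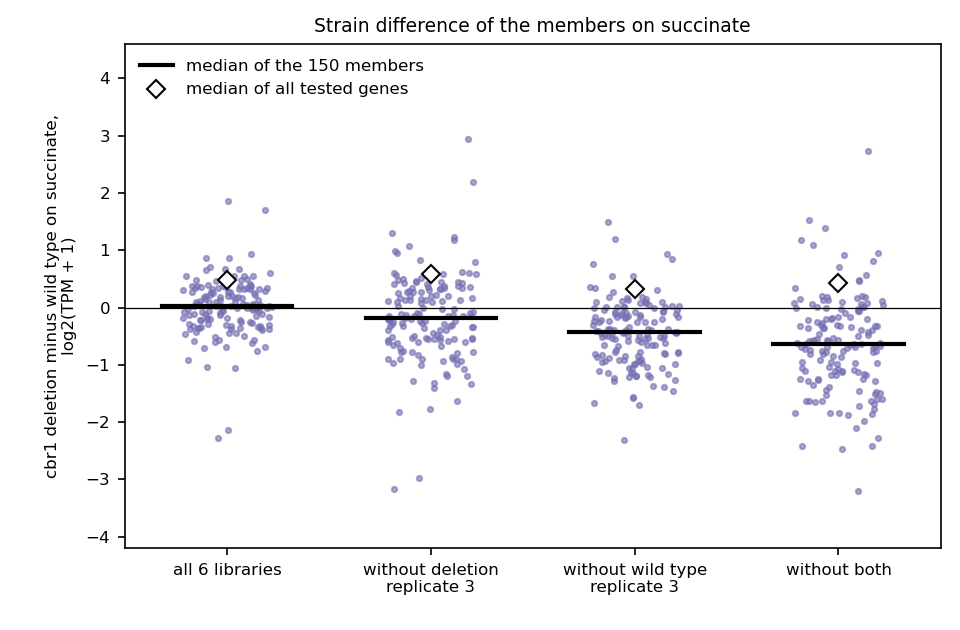
Difference between the cbr1 deletion strain and the wild type on succinate, on the log2(TPM + 1) scale (vertical axis), for each of the 150 members with all 6 libraries and with replicates 3 left out singly or together (horizontal axis). Bars are the members' medians (0.03, -0.18, -0.43 and -0.64 in order) and diamonds the medians of all tested genes (0.47, 0.58, 0.32 and 0.43); horizontal scatter of the points is random.

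The 3 deletion libraries did not overlap the 3 wild type libraries on succinate in 4 of 150 members, 3 higher and 1 lower, where 30.1% of all tested genes were higher and 0.529% lower. RTO4_15296 was the lower one. It was at 0.370, 2.56 and 12.9 TPM in the deletion strain on succinate, against 17.2, 21.8 and 18.04 TPM in the wild type on succinate. The log2 difference was -2.29 ± 0.60 (SE), with an adjusted p of 0.151 in limma. On cellobiose it was listed at 0 in all 3 deletion libraries, against 10.7, 3.16 and 2.64 TPM in the wild type. Without carbon it was listed at 0 in 1 deletion library and 2 wild type libraries, and the highest library without carbon, wild type replicate 2 at 2.57 TPM, was close to wild type replicates 2 and 3 on cellobiose. Without deletion replicate 3 on succinate it was called, with a log2 difference of -3.17 (limma adjusted p = 0.00219), and without deletion replicate 1 the difference was -1.50 (limma adjusted p = 0.487). It was also called with a replicate block in the fit of all libraries (limma adjusted p = 0.0282), with array weights, and without both replicates 3.

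RTO4_9919 and RTO4_11858 were the higher ones named. RTO4_9919 was at 165, 60.5 and 49.1 TPM in the deletion strain on succinate, against 33.3, 34.8 and 7.79 TPM in the wild type on succinate. The log2 difference was 1.85 ± 0.52 (SE), with an adjusted p of 0.151 in limma. It was thus higher in the deletion strain on succinate and lower in it on cellobiose, in all 3 libraries each. RTO4_11858 was at 86.7, 98.8 and 86.9 TPM in the deletion strain on succinate, against 71.3, 74.7 and 43.6 TPM in the wild type on succinate. The difference, 0.55 ± 0.27 (SE), had an adjusted p of 0.189 in limma. Neither met the threshold in the fit without a block. With a replicate block in the fit of all libraries, RTO4_9919 was called (limma adjusted p = 0.017), though the numbers gave no pairing on succinate. Without deletion replicate 3 on succinate it was called with a log2 difference of 2.19 (limma adjusted p = 0.0218). Without wild type replicate 3 the difference was 1.19 (limma adjusted p = 0.323), and without both it was 1.53 (limma adjusted p = 0.0664). The difference of RTO4_11858 was 0.31 without wild type replicate 3 and 0.34 without both. With all 6 libraries its 0.55 was close to the median of all tested genes, 0.47. After median-ratio scaling it was 0.04 (limma adjusted p = 0.93), and after quantile normalization 0.15 (limma adjusted p = 0.699).

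The leading genes of the list followed the split of the libraries on succinate. RTO4_13771 was at 46.4, 113 and 268 TPM in the deletion strain on succinate, against 249.8, 277 and 66.5 TPM in the wild type. The log2 difference was -0.56 ± 0.55 (SE), with an adjusted p of 0.472 in limma. RTO4_8709 was at 58.0, 59.3 and 115 TPM in the deletion strain and at 120, 148 and 41.5 TPM in the wild type, with a difference of -0.29 ± 0.38 (SE) and an adjusted p of 0.587 in limma. In both genes deletion replicate 3 reached the level of wild type replicates 1 and 2, and wild type replicate 3 lay near deletion replicates 1 and 2. Without both replicates 3 the differences were -1.84 and -1.17 (limma adjusted p = 0.0243 and 0.0203). The abundant member RTO4_13362 was at 2288, 2171 and 2551 TPM in the deletion strain on succinate, against 4961, 2578 and 1485 TPM in the wild type. RTO4_13842 was at 2155.5, 2708 and 4230.4 TPM in the deletion strain, against 7683, 3884 and 2047 TPM in the wild type. Their strain differences on succinate were -0.19 ± 0.39 and -0.44 ± 0.42 (SE; limma adjusted p = 0.733 and 0.462). Without both replicates 3 they were -0.68 and -1.18 (limma adjusted p = 0.26 and 0.0764). With each library left out in turn they ran from -0.62 to 0.25 and from -0.91 to 0.05, and those of the leaders RTO4_13771 and RTO4_8709 from -1.22 to 0.07 and from -0.85 to 0.06.

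Without carbon the rule bounded the strain difference on one side only, at less than 0.5 lower in the deletion strain. The members ranged from -0.49 to 0.49 with a median of -0.07, against 0.27 over all tested genes. In that medium limma called 0 members. An unadjusted p under 0.05 was reached by 0 members and by 9.50% of all tested genes, and 0.0126% of all tested genes were called higher and 0.063% lower. A call as lower needed a difference of at least 1, which the rule does not allow for a member. No bound was set for levels higher in the deletion strain, and no member reached 0.5 there.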

How the data were processed

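Messenger RNA libraries were made with poly-A enrichment, per the labels' protocols. The deposited values are TPM made by the authors, 1 column for each of 18 libraries, each summing to 1e+06. Salmon 1.10.0 is named in the submitters' processing notes; for the genome build and annotation, the sources used here name none. TPM holds no read numbers, so depth is unknown and no limit that needs it is given. All 18 columns were matched by library name. Strand and shared reads between similar genes could not be checked.

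Values were transformed to log2(TPM + 1), which understates changes of low genes. limma 3.58.1 in R 4.3.3 was fitted to 7938 genes with 1 mean per group, all 18 libraries and a trended prior, and was tested on simulated data. With 3 against 3 libraries an exact permutation test cannot give a p under 0.1. Deviations of same-numbered libraries correlated without carbon (r = 0.606, 0.236 and 0.686), and by -0.057 to -0.064 on cellobiose. p-values measure the spread between these libraries.

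The members and alternatives were chosen with earlier results of these data known. Named genes were 2 per direction: leaders of the list, most abundant, not overlapping on succinate (mean of at least 10 TPM), largest succinate and cellobiose differences, and extreme retained shares. Sequences are not used here.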

Additional observations from a re-analysis of the deposited data

How the results depend on the processing

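The rule gave between 114 and 150 of the 150 members again when each library was left out (114 without wild type replicate 3 on cellobiose, 115 without wild type replicate 3 without carbon), 110 after median-ratio scaling, 108 after quantile normalization, and 139 and 143 with pseudocounts of 5 and 0.1 TPM. The count of members called between strains on succinate was 0, and it was 38 with array weights, 40 without both replicates 3 on succinate, and between 0 and 11 when each library was left out. A replicate block in the fit of all 18 libraries gave 3 (2 higher and 1 lower), where 5.40% of all tested genes were called higher and 0.302% lower, and a replicate block in the 6 succinate libraries alone gave 0. Deviations of same-numbered libraries on succinate correlated at 0.084, -0.345 and -0.321, so on succinate the numbers gave no pairing. The median strain difference on succinate was between -0.43 and 0.30 when each library was left out and -0.64 without both replicates 3. The retained share of the cellobiose response was 0.926% after median-ratio scaling, 3.76% after quantile normalization, and between -17.3% and -7.82% when each library was left out. The number of members at least 1 higher on succinate than without carbon in the wild type was 127 and 120 after these scalings. No share of all tested genes was computed after them. The number was 108 without both replicates 3, against 6.32% of all tested genes, and between 30 and 108 when each library was left out. The causes were not tested.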

Other observations

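The 135 genes that met the thresholds but ranked after the members had smaller succinate differences. Their median difference between succinate and no carbon was 0.68 in the deletion strain and 0.50 in the wild type, and 14 reached at least 1 in both strains. Over all tested genes, 7.19% reached at least 1 in the deletion strain and 3.51% in the wild type. These shares take each strain singly, and the share reaching it in both strains was not computed. The ranking used the wild type libraries without carbon, so smaller differences in the wild type were partly set by it. The median strain difference of the 135 genes on succinate was 0.16. A further 77 genes met both differences on cellobiose and failed the no carbon criterion alone, being at least 0.5 lower in the deletion strain without carbon. For these the median share of the cellobiose response retained in the deletion strain was 47.1%, and the median difference between succinate and no carbon was 2.17 in the deletion strain and 1.13 in the wild type. The criterion enters that share and the succinate differences through the baseline, so the sets are given side by side without a test.

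Of the 150 members, 6 form 3 pairs whose identifiers carry consecutive numbers, which is 4% of members. Of all tested genes, 3.51% have a member at the next or previous number, a share close to that of the members. Whether consecutive numbers mean neighbouring genes is not given in the sources used here.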
